A study of Mus musculus with 10 samples.

Results

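The citric acid cycle and pyruvate metabolism enzymes described here are 36 genes, taken by symbol from a list of named enzymes out of 54532 genes in the count table. The list holds 17 genes of the citric acid cycle and its cytosolic counterparts, 4 of the pyruvate dehydrogenase complex, 6 kinases and phosphatases of that complex, 7 genes of anaplerosis and carbon export and 2 aspartate aminotransferases. Succinate dehydrogenase is not on the list.

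Bulk RNA-seq was carried out on kidneys of male WT mice of the C57BL/6 background with unilateral ureteral obstruction (UUO), operated on at 8 weeks of age and examined after 14 days. Dimethyl malonate (DMM), an ester that is cleaved to the succinate dehydrogenase inhibitor malonate, was given to 5 mice by intraperitoneal injection (40 mg/kg on alternate days), and 5 control mice received PBS. Each kidney gave 1 library, every kidney was obstructed, and no kidney without obstruction was analysed here. The comparison asks which transcripts differ between DMM and PBS in obstructed kidneys.

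Total counts per library were 18078777, 16457495, 17825223, 18068465 and 16508788 in PBS replicates 1 to 5. In the same order, DMM replicates had 15797882, 15722527, 17806034, 19475833 and 16794390. At this depth the lowest count of any of the 36 genes in any library was 132 and the highest 12090, and all 36 passed the filter on low counts. Levels are given as CPM after TMM scaling over the 10 libraries. Levels of the 36 genes are compared with each other as deposited FPKM, which divides by gene length. For marker lists the gene with the most counts is named, by mean CPM, which grows with gene length and does not rank levels. Log2 fold changes are DMM over PBS. Calls required a fold change of more than 1.5 along with an adjusted p (Benjamini-Hochberg) below 0.05. Kidney identity was visible in each library: Umod, made by the thick ascending limb, was between 1001 and 3704 CPM, and Lrp2, the endocytic receptor megalin of the proximal tubule, between 219.6 and 2504 CPM.

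In the matrix of mitochondria, the pyruvate dehydrogenase complex turns pyruvate into acetyl-CoA, citrate synthase joins acetyl-CoA to oxaloacetate, and the cycle oxidizes the citrate formed while reducing NAD and FAD for the respiratory chain. Pyruvate carboxylase refills oxaloacetate, and phosphoenolpyruvate carboxykinase, malic enzymes and ATP citrate lyase draw carbon out of the cycle. Proximal tubule cells are rich in mitochondria, and the kidney cortex, like the liver, makes glucose through phosphoenolpyruvate carboxykinase.

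Several libraries stood apart. In the group means that the authors deposited, the weight is 0 for PBS replicate 3 and for DMM replicate 1, and between 0.227 and 0.271 for the other 8 libraries. PBS replicate 3 was above the other 4 PBS libraries in 30 of the 36 genes, and lay within the range of DMM replicates 2 to 5 in 31. DMM replicate 1 was below the other 4 DMM libraries in 20 genes and within the range of PBS replicates 1, 2, 4 and 5 in 32. Over all genes, the mean correlation of DMM replicate 1 was 0.984 with PBS libraries and 0.952 with DMM libraries. The mean correlation of DMM replicate 2 was 0.972 with PBS and 0.965 with DMM libraries, and DMM replicate 3 had 0.9615 with both. PBS replicate 3 had 0.974 with PBS and 0.965 with DMM libraries. DMM replicate 4 was low with either group, at 0.916 with DMM and 0.913 with PBS libraries. Means with DMM libraries include it and DMM replicate 1, so they do not show that DMM replicates 2 and 3 resemble PBS. DMM replicate 4 had 20029 genes with a count, against 22898 to 24083 in the other libraries, and a TMM factor of 0.852, against 0.981 to 1.05. It was the lowest of DMM replicates 2 to 5 in 22 of the 36 genes and the highest in 10. Results are therefore given over all 10 libraries, over the 8 libraries without PBS replicate 3 and DMM replicate 1, and, where the count moves, over the 7 libraries that also lack DMM replicate 4. The removed libraries are those that resembled the other group in most of these genes, so the counts over 8 libraries are not an independent check of those over 10. Nor are those over 7, since taking out a library that lies apart from its group in many of these genes lowers the spread and can raise the difference by itself.

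Over all 10 libraries edgeR's quasi-likelihood test called 0 of the 36 genes, as it called 0% of all 16505 genes tested, and DESeq2 also called 0 of the 36, though it called 41 genes elsewhere. At an unadjusted p under 0.05 with DMM higher, 5 of the 36 passed (Fh1, Pdk4, Ogdh, Idh3a and Dld), against 4.4% of all genes tested. The log2 fold change was positive for 33 of the 36, against 52.8% of all genes, and its median was 0.29, against 0.02 over all genes. In 0 of the 36 genes did all DMM libraries lie above all PBS libraries, where 0.794% of all genes did.

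Over the 8 libraries, 5 of the 36 genes rose (Fh1, Dld, Me1, Idh1 and Pck1) and 0 fell, against 2.73% of all 16550 genes called higher. With no minimum fold change, 11 of the 36 had a higher level at an adjusted p under 0.05, against 3.17% of all genes; the other 6 were Sucla2, Idh3a, Ogdh, Dlst, Aco1 and Dlat. DMM libraries lay above PBS libraries without overlap in 16 of the 36, against 9.45% of all genes. The median log2 fold change was 0.51, against 0.02 over all genes, and 33 of 36 were positive, against 52.4%. Leaving out single libraries moved the number called: to 1 without PBS replicate 1, to 2 without PBS replicate 4, and to 0 without PBS replicate 5 or without DMM replicate 5. In the same order, the number of all genes called higher fell from 452 of 16550 to 225 of 16792, 160 of 16810, 131 of 16918 and 168 of 16891. DMM replicate 4 was the lowest of DMM replicates 2 to 5 in 22 of these 36 genes. Over the 7 libraries without it, 16 of the 36 were called, all higher, against 6.71% of all genes called higher there. From 8 to 7 libraries the median log2 fold change of the 36 went from 0.51 to 0.54, with a larger value in 24 of them, and the median SE went from 0.16 to 0.09, with a smaller value in all 36. Scaled by library size alone, Me1 was the 1 gene called, and the median over all genes then moved by -0.11 on the log2 scale. Since these are whole kidneys, more cells that express a gene and more RNA per cell cannot be told apart where a level is higher, nor fewer cells and less RNA per cell where it is lower.

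**Figure D1:**
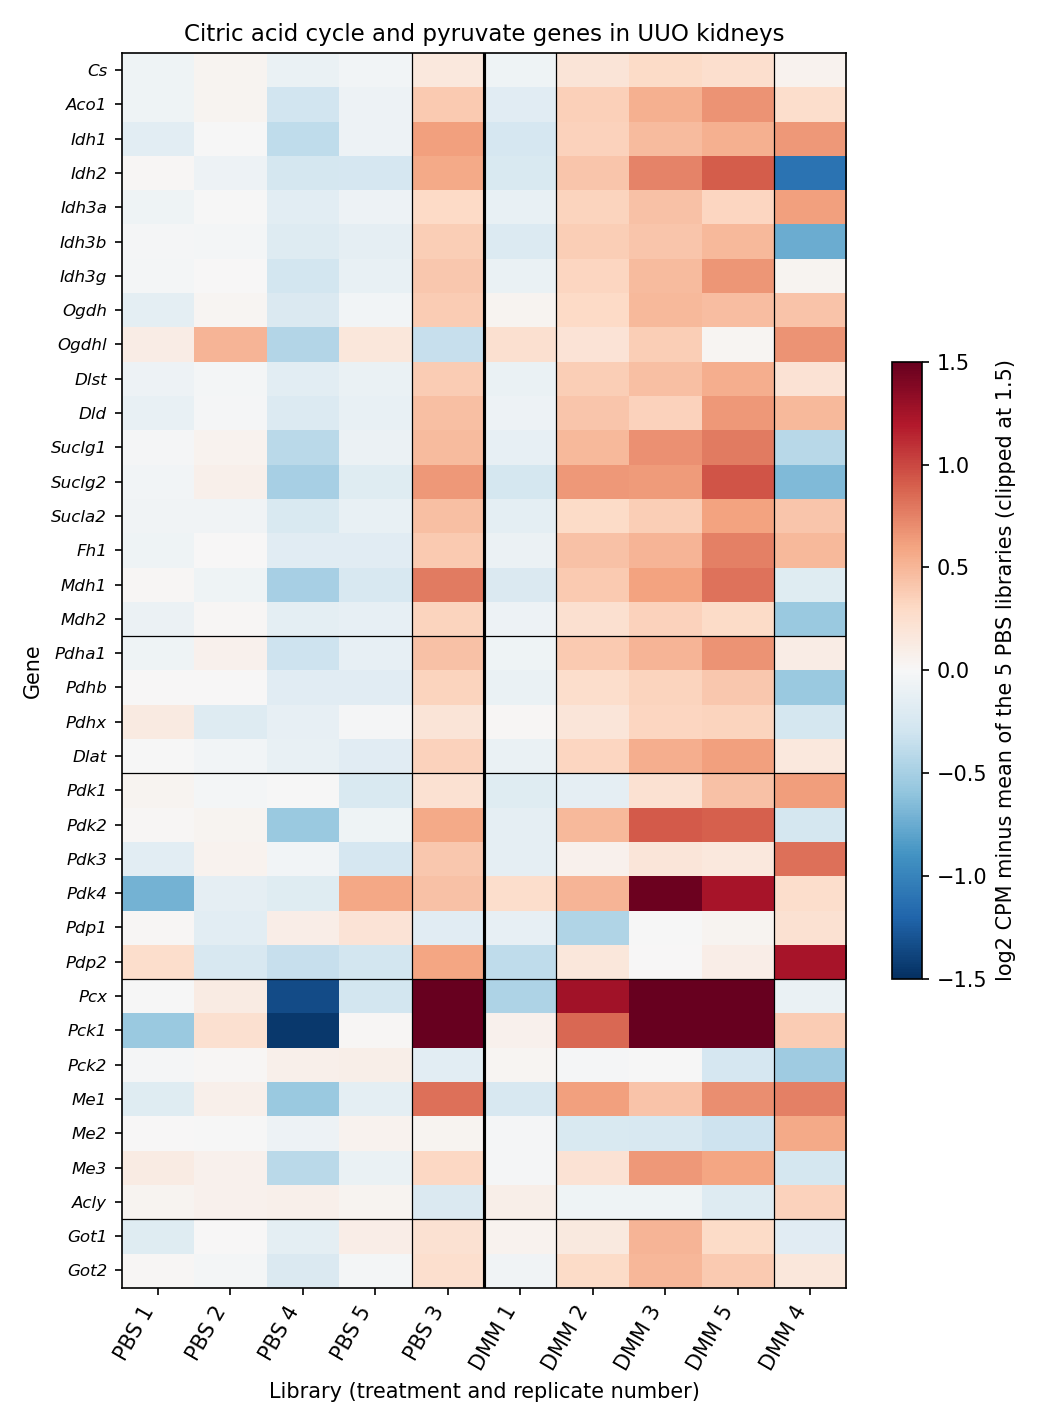
Colour gives log2 CPM (0.5 added) of each of the 36 genes in each library, minus the mean over the 5 PBS libraries and clipped at 1.5; horizontal lines part the functional groups, thin vertical lines set off PBS replicate 3, DMM replicate 1 and DMM replicate 4, and the thick line parts PBS from DMM. The median over the 36 genes was 0.39 in PBS replicate 3 and -0.10 in DMM replicate 1, and between 0.20 and 0.54 in DMM replicates 2 to 5.

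Seen by library, the median of the 36 genes relative to the PBS mean was -0.03, 0.00, 0.39, -0.21 and -0.10 in PBS replicates 1 to 5 on the log2 scale. In DMM replicates 1 to 5 it was -0.10, 0.33, 0.46, 0.20 and 0.54. PBS replicate 3 was thus above DMM replicates 1, 2 and 4, and PBS replicate 4 was the lowest of all 10 libraries in 19 of the 36 genes. DMM replicate 5 was the highest of all 10 in 17 and DMM replicate 4 in 9.

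Among the 17 genes of the citric acid cycle, 3 rose over the 8 libraries and 0 fell, against 2.73% and 3.56% of all genes. All 17 log2 fold changes were positive, against 52.4% of all genes. They were between 0.21 and 0.65, and the median was 0.53. Over all 10 libraries 0 of the 17 were called, with log2 fold changes between 0.07 and 0.43. Fh1 (ENSMUSG00000026526, chr1:175600374-175625635 of mm10) encodes fumarase, which hydrates fumarate to malate in the step that follows succinate dehydrogenase. Fh1 stood at 85.8, 90.0, 118, 79.6 and 79.9 CPM in PBS replicates 1 to 5. Fh1 in DMM replicates 1 to 5 stood at 84.1, 122, 128, 126 and 152 CPM. DMM replicates 2 to 5 were above every PBS library, and DMM replicate 1 lay among the PBS libraries. The mean was 83.8 ± 5.02 CPM in 4 PBS and 132 ± 13.7 CPM in 4 DMM kidneys (SD). For Fh1, edgeR's quasi-likelihood test gave a log2 fold change of 0.65 ± 0.11 (SE) over the 8 libraries, with a Benjamini-Hochberg adjusted p of 0.01119, and of 0.43 ± 0.17 over all 10, with an adjusted p of 0.4034. Without PBS replicate 5 the adjusted p of the 8 libraries became 0.05556 in edgeR's test, and without DMM replicate 5 the log2 fold change became 0.58, short of the 1.5-fold minimum. Fh1 overlaps Kmo, which lies on the opposite strand, over 5255 bases. Kmo was at 18.5 CPM in 4 PBS and 47.1 CPM in 4 DMM kidneys. Its log2 fold change by edgeR's quasi-likelihood test was 1.35 over the 8 libraries, with an adjusted p of 0.0127. Over all 10 it was 0.78, with an adjusted p of 0.4876. Whether the counting used strand is not given in the sources used here, so reads of the pair cannot be told apart within the overlap.

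Dld (chr12:31331277-31351453) encodes dihydrolipoamide dehydrogenase, the subunit shared by the pyruvate and 2-oxoglutarate dehydrogenase complexes. Dld stood at 124, 131, 183, 115 and 123 CPM in PBS replicates 1 to 5. Dld in DMM replicates 1 to 5 stood at 127, 178, 169.8, 187 and 209.7 CPM. For Dld, PBS replicate 3 was above DMM replicates 1, 2 and 3, while the other 4 PBS libraries were below DMM replicates 2 to 5. The mean was 124 ± 6.53 CPM in 4 PBS and 186 ± 17.2 CPM in 4 DMM kidneys (SD). For Dld, edgeR's quasi-likelihood test gave a log2 fold change of 0.59 ± 0.11 (SE) over the 8 libraries, with a Benjamini-Hochberg adjusted p of 0.01424, and of 0.37 ± 0.16 over all 10, with an adjusted p of 0.4493. In edgeR's test the adjusted p of the 8 libraries became 0.05083 without PBS replicate 1, 0.0579 without PBS replicate 4, 0.06368 without PBS replicate 5 and 0.0519 without DMM replicate 5.

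Idh1 (chr1:65158616-65186500) encodes the cytosolic and peroxisomal isocitrate dehydrogenase that makes NADPH. Idh1 stood at 168, 186, 286, 144 and 178 CPM in PBS replicates 1 to 5. Idh1 in DMM replicates 1 to 5 stood at 157, 238, 260.4, 294 and 272 CPM. Among all 10 libraries only DMM replicate 4 exceeded PBS replicate 3, and the other 4 PBS libraries were below DMM replicates 2 to 5. The mean was 169 ± 18.2 CPM in 4 PBS and 266 ± 23.1 CPM in 4 DMM kidneys (SD). For Idh1, edgeR's quasi-likelihood test gave a log2 fold change of 0.65 ± 0.12 (SE) over the 8 libraries, with a Benjamini-Hochberg adjusted p of 0.01623, and of 0.34 ± 0.21 over all 10, with an adjusted p of 0.5424. In edgeR's test the adjusted p of the 8 libraries became 0.05642 without PBS replicate 1, 0.05313 without PBS replicate 4, 0.05763 without PBS replicate 5 and 0.05604 without DMM replicate 5.

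Idh2, the mitochondrial NADP-linked enzyme, split within the DMM group: DMM replicates 2, 3 and 5 were at 210.4, 264 and 298 CPM, and DMM replicate 4 was at 73.0 CPM, below every PBS library. For Idh2, edgeR's quasi-likelihood test gave a log2 fold change of 0.55 ± 0.36 (SE) over the 8 libraries, with a Benjamini-Hochberg adjusted p of 0.4168, and of 0.28 ± 0.33 over all 10, with an adjusted p of 0.7441. Over the 7 libraries without DMM replicate 4, edgeR's test gave Idh2 a log2 fold change of 0.84 and an adjusted p of 0.001404. The ratio of Idh1 to Idh2 in FPKM, on the log2 scale, was 1.91 in DMM replicate 4 and between -0.23 and 0.33 in the other 9 libraries. The Idh2 values were picked out after they were seen.

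The NAD-linked isocitrate dehydrogenase of the cycle is built from Idh3a, the catalytic subunit, with Idh3b and Idh3g. Idh3a stood at 91.0, 94.8, 117, 85.3 and 90.1 CPM in PBS replicates 1 to 5. Idh3a in DMM replicates 1 to 5 stood at 88.3, 120.1, 129, 146 and 119 CPM. DMM replicates 2 to 5 were above every PBS library, with DMM replicate 4 the highest, and DMM replicate 1 lay among the PBS libraries. For Idh3a, edgeR's quasi-likelihood test gave a log2 fold change of 0.51 ± 0.11 (SE) over the 8 libraries, with a Benjamini-Hochberg adjusted p of 0.02459, and of 0.33 ± 0.14 over all 10, with an adjusted p of 0.4352. The fold change over the 8 libraries is below 1.5, so that Idh3a was not called. Idh3g had a log2 fold change of 0.49 and Idh3b of 0.30 over the 8 libraries, and neither passed the test. Over the 7 libraries without DMM replicate 4, edgeR's test called Idh3g (log2 fold change 0.59, adjusted p 0.00218). Idh3b had 0.52 there, with an adjusted p of 0.00078 and a fold change below 1.5. In DMM replicate 4, Idh3b was at 68.0 CPM, the lowest of all 10 libraries, while Idh3a was at its highest.

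The 2-oxoglutarate dehydrogenase complex joins Ogdh, its decarboxylating subunit, with Dlst, the succinyltransferase, and Dld. Ogdh stood at 304, 341, 435, 288 and 326 CPM in PBS replicates 1 to 5. Ogdh in DMM replicates 1 to 5 stood at 345, 414, 469.5, 452 and 464 CPM. Ogdh in PBS replicate 3 was above DMM replicates 1 and 2 and below DMM replicates 3 to 5, and DMM replicate 1 was above the 4 remaining PBS libraries by little. For Ogdh, edgeR's quasi-likelihood test gave a log2 fold change of 0.51 ± 0.11 (SE) over the 8 libraries, with a Benjamini-Hochberg adjusted p of 0.02549, and of 0.34 ± 0.14 over all 10, with an adjusted p of 0.4284. Dlst stood at 165, 171, 227, 156 and 163 CPM in PBS replicates 1 to 5. Dlst in DMM replicates 1 to 5 stood at 163, 225, 239.7, 203 and 254 CPM. PBS replicate 3 was above DMM replicates 1, 2 and 4, and the other 4 PBS libraries were below DMM replicates 2 to 5. For Dlst, edgeR's quasi-likelihood test gave a log2 fold change of 0.49 ± 0.11 (SE) over the 8 libraries, with a Benjamini-Hochberg adjusted p of 0.02892, and of 0.30 ± 0.15 over all 10, with an adjusted p of 0.4929. Both missed the 1.5-fold minimum over the 8 libraries. Ogdhl, a paralog of Ogdh, had 2.67 FPKM against 69.9 FPKM for Ogdh, and a log2 fold change (8 libraries) of 0.22 that did not pass.

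Succinyl-CoA synthetase, which makes succinate, the substrate of succinate dehydrogenase, pairs the common subunit Suclg1 with either Sucla2 (ADP-forming) or Suclg2 (GDP-forming). Sucla2 stood at 75.8, 76.2, 108, 67.3 and 73.2 CPM in PBS replicates 1 to 5. Sucla2 in DMM replicates 1 to 5 stood at 71.3, 96.3, 102, 105 and 119.8 CPM. DMM replicates 2 to 5 were above PBS replicates 1, 2, 4 and 5, and PBS replicate 3 was exceeded only by DMM replicate 5. For Sucla2, edgeR's quasi-likelihood test gave a log2 fold change of 0.53 ± 0.11 (SE) over the 8 libraries, with a Benjamini-Hochberg adjusted p of 0.02122, and of 0.31 ± 0.16 over all 10, with an adjusted p of 0.5129. Its fold change was below 1.5. Suclg1 and Suclg2 had log2 fold changes of 0.56 and 0.65 over the 8 libraries and did not pass, with DMM replicate 4 at 75.4 and 83.2 CPM, the lowest of all 10 libraries for both. Over the 7 libraries without DMM replicate 4 both were called, with log2 fold changes of 0.77 and 0.90. The log2 ratio of Suclg2 to Sucla2 in FPKM was -0.55 in DMM replicate 4 and between 0.26 and 0.89 in the other 9 libraries.

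Malate dehydrogenase exists as a cytosolic form, Mdh1, and a mitochondrial form, Mdh2, which together with the aspartate aminotransferases carry the malate-aspartate shuttle. Mdh1 had the highest mean level per length of the 36 genes, 134 FPKM. Mdh1 stood at 302, 286, 514, 211 and 254 CPM in PBS replicates 1 to 5. Mdh1 in DMM replicates 1 to 5 stood at 258, 394, 455, 263 and 526 CPM. Only DMM replicate 5 exceeded PBS replicate 3, and DMM replicate 4 lay within the PBS libraries, so the groups overlapped also over the 8 libraries. For Mdh1, edgeR's quasi-likelihood test gave a log2 fold change of 0.64 ± 0.22 (SE) over the 8 libraries, with a Benjamini-Hochberg adjusted p of 0.121, and of 0.27 ± 0.27 over all 10, with an adjusted p of 0.6908. DESeq2 over the same 8 libraries called it, with an adjusted p of 0.04128. Over the 7 libraries without DMM replicate 4, edgeR's test called Mdh1, with a log2 fold change of 0.80 and an adjusted p of 0.00279. Mdh2 (53.4 FPKM) had, over the 8 libraries, a log2 fold change of 0.21 and did not pass, with DMM replicate 4 lowest at 125 CPM. The log2 ratio of Mdh1 to Mdh2 in FPKM was 1.05 ± 0.19 in the 4 PBS and 1.49 ± 0.16 in the 4 DMM kidneys (SD) of the 8 libraries, and 1.16 ± 0.30 and 1.40 ± 0.25 over all 10, and this ratio was not tested.

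Citrate synthase, Cs, was between 193 and 213 CPM in PBS replicates 1, 2, 4 and 5 and between 215 and 252 CPM in DMM replicates 2 to 5. The 4 PBS and 4 DMM libraries did not overlap, yet the log2 fold change of 0.24 ± 0.10 (SE) did not pass. Aco1, the cytosolic aconitase that also serves as an iron regulatory protein, went from 184.9 ± 17.2 to 272 ± 34.4 CPM (SD, n = 4 each). Its log2 fold change (8 libraries) of 0.56 had an adjusted p of 0.0362 in edgeR's quasi-likelihood test and was under the 1.5-fold minimum. The same test called Aco1 over the 7 libraries without DMM replicate 4 (log2 fold change 0.62, adjusted p 0.00197). It also called Aco1 over the 8 with the correction for gene length and GC content (0.60, adjusted p 0.007448).

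In the pyruvate dehydrogenase complex, 0 of 4 genes were called over either set of libraries. Pdha1 and Pdhb encode the subunits of the decarboxylase, Dlat the acetyltransferase and Pdhx the protein that holds Dld in the complex. Their log2 fold changes over the 8 libraries were 0.54, 0.24, 0.51 and 0.21, and over all 10 they were 0.33, 0.10, 0.32 and 0.13. Dlat alone had an adjusted p under 0.05 over the 8 libraries, 0.04408 by edgeR's quasi-likelihood test, at a fold change below 1.5. Dlat levels in the 4 PBS libraries were between 73.3 and 82.3 CPM, below DMM replicates 2 to 5, which were between 92.4 and 127 CPM. Over the 7 libraries without DMM replicate 4, Dlat and Pdha1 were called, with log2 fold changes of 0.59 and 0.64. Pdhb was at 55.1 CPM in DMM replicate 4, lower than in any other library, and between 97.9 and 108 CPM in DMM replicates 2, 3 and 5. Pdha1 overlaps Map3k15 on the opposite strand over 1143 bases.

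The kinases Pdk1 to Pdk4 phosphorylate and switch off pyruvate dehydrogenase, and the phosphatases Pdp1 and Pdp2 reverse this. edgeR called 0 of these 6 over 8 and over 10 libraries; Pdk4 was the 1 of the 6 with an unadjusted p under 0.05 over all 10; DESeq2 called Pdk4 over the 8. Pdk4 is the kinase known to be induced in fasting. Pdk4 stood at 35.8, 53.6, 80.1, 51.7 and 88.1 CPM in PBS replicates 1 to 5. Pdk4 in DMM replicates 1 to 5 stood at 70.6, 83.7, 164, 70.4 and 139 CPM. DMM replicates 3 and 5 were above every other library, while DMM replicates 1, 2 and 4 lay within the PBS range. For Pdk4, edgeR's quasi-likelihood test gave a log2 fold change of 0.996 ± 0.34 (SE) over the 8 libraries, with a Benjamini-Hochberg adjusted p of 0.1188, and of 0.77 ± 0.31 over all 10, with an adjusted p of 0.4142. With DESeq2 over the 8 libraries its adjusted p was 0.03453. Pdk2 had, over the 8 libraries, a log2 fold change of 0.71 and did not pass. Both Pdk2 and Pdk4 were called over the 7 libraries without DMM replicate 4, with log2 fold changes of 0.91 and 1.17.

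Pdk1 and Pdk3 had log2 fold changes of 0.37 and 0.44 over the 8 libraries, and both were highest in DMM replicate 4, at 67.2 and 67.7 CPM. Pdp1 had a log2 fold change of -0.07 and Pdp2 of 0.61, neither past the test. Pdp2 was at 69.5 CPM (DMM replicate 4) and between 29.1 and 32.9 CPM in DMM replicates 2, 3 and 5, and its log2 fold change was 0.22 without DMM replicate 4. The log2 ratio of Pdk4 to Pdk2 in FPKM was between -1.26 and 0.13 in PBS and between -0.50 and 0.02 in DMM kidneys, so the ranges overlapped.

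Of the 7 genes of anaplerosis and export, 2 rose over the 8 libraries and 0 fell, against 2.73% and 3.56% of all genes. Log2 fold changes ran from -0.23 to 2.11. Pck1 (ENSMUSG00000027513, chr2:173153048-173159273) encodes the cytosolic phosphoenolpyruvate carboxykinase, a controlling enzyme of gluconeogenesis, and had the largest log2 fold change of the 36 genes in both sets of libraries. Pck1 stood at 85.0, 147, 421, 45.6 and 127 CPM in PBS replicates 1 to 5. Pck1 in DMM replicates 1 to 5 stood at 131, 228, 622, 163 and 735 CPM. DMM replicates 3 and 5 were far above the rest, PBS replicate 3 came next, and DMM replicate 4 was above PBS replicate 2 by little. The mean was 101 ± 45.2 CPM in 4 PBS and 437 ± 284 CPM in 4 DMM kidneys (SD). For Pck1, edgeR's quasi-likelihood test gave a log2 fold change of 2.11 ± 0.54 (SE) over the 8 libraries, with a Benjamini-Hochberg adjusted p of 0.04951, and of 1.19 ± 0.64 over all 10, with an adjusted p of 0.5132. The call sits at the threshold: in edgeR's test over the 8 libraries, leaving out a library other than DMM replicate 4 gave an adjusted p between 0.05001 (without DMM replicate 2) and 0.1351 (without PBS replicate 4), with 0.1334, 0.08999, 0.1216, 0.1278 and 0.1283 without PBS replicates 1, 2 and 5 and DMM replicates 3 and 5. Without DMM replicate 4 it was 0.00457.

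Pck2, the mitochondrial form of the same enzyme, differed in direction from Pck1. Pck2 stood at 59.8, 60.9, 53.9, 63.5 and 64.3 CPM in PBS replicates 1 to 5. Pck2 in DMM replicates 1 to 5 stood at 61.8, 59.8, 60.02, 41.4 and 50.7 CPM. The lowest levels were in DMM replicates 4 and 5 and PBS replicate 3, and the groups overlapped. For Pck2, edgeR's quasi-likelihood test gave a log2 fold change of -0.23 ± 0.13 (SE) over the 8 libraries, with a Benjamini-Hochberg adjusted p of 0.3691, and of -0.14 ± 0.12 over all 10, with an adjusted p of 0.6393. In FPKM, Pck1 averaged 78.4 and Pck2 7.33. Their log2 ratio in FPKM was 1.70, 2.46, 4.15, 0.71 and 2.17 in PBS replicates 1 to 5 and 2.27, 3.12, 4.56, 3.16 and 5.04 in DMM replicates 1 to 5, with no test of the ratio. DMM replicates 3 and 5 had the highest ratios, followed by PBS replicate 3.

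Pcx encodes pyruvate carboxylase, the mitochondrial enzyme that forms oxaloacetate from pyruvate, and was picked out after its values were seen. Pcx stood at 85.1, 92.6, 243, 33.4 and 70.3 CPM in PBS replicates 1 to 5. Pcx in DMM replicates 1 to 5 stood at 61.9, 206, 271, 79.7 and 377 CPM. PBS replicate 3 and DMM replicates 2, 3 and 5 were the highest libraries, each above every other one, and DMM replicate 4 was within the range of the remaining PBS libraries. For Pcx, edgeR's quasi-likelihood test gave a log2 fold change of 1.73 ± 0.46 (SE) over the 8 libraries, with a Benjamini-Hochberg adjusted p of 0.05823, and of 0.92 ± 0.58 over all 10, with an adjusted p of 0.5465. It was called over the 8 libraries by DESeq2 (adjusted p 0.001969), and over the 7 libraries without DMM replicate 4 by edgeR, with a log2 fold change of 2.02 and an adjusted p of 0.002143. Pcx overlaps Lrfn4 on the opposite strand over 3883 bases, and Lrfn4 had a log2 fold change of -0.28 that did not pass.

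The malic enzymes turn malate into pyruvate. Me1 (chr9:86581371-86695953) encodes the cytosolic form, a source of NADPH. Me1 stood at 138, 166, 279.6, 107 and 142 CPM in PBS replicates 1 to 5. Me1 in DMM replicates 1 to 5 stood at 133, 241, 213, 267 and 257 CPM. PBS replicate 3 was the highest of all 10 libraries, and the other 4 PBS libraries were below DMM replicates 2 to 5. The mean was 138 ± 24.3 CPM in 4 PBS and 244 ± 23.6 CPM in 4 DMM kidneys (SD). For Me1, edgeR's quasi-likelihood test gave a log2 fold change of 0.82 ± 0.15 (SE) over the 8 libraries, with a Benjamini-Hochberg adjusted p of 0.01482, and of 0.42 ± 0.26 over all 10, with an adjusted p of 0.5499. In edgeR's test the adjusted p of the 8 libraries became 0.05044 without PBS replicate 1, 0.05856 without PBS replicate 5 and 0.05204 without DMM replicate 5.

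Me3, a mitochondrial malic enzyme, had the lowest mean level per length of the 36 genes, 2.08 FPKM. Me3 stood at 29.9, 28.7, 34.1, 20.6 and 25.6 CPM in PBS replicates 1 to 5. Me3 in DMM replicates 1 to 5 stood at 27.1, 31.8, 43.4, 22.8 and 41.6 CPM. DMM replicates 3 and 5 were the highest and PBS replicate 4 the lowest, with the groups overlapping. For Me3, edgeR's quasi-likelihood test gave a log2 fold change of 0.41 ± 0.22 (SE) over the 8 libraries, with a Benjamini-Hochberg adjusted p of 0.3147, and of 0.26 ± 0.20 over all 10, with an adjusted p of 0.5964. Me2, the NAD-linked mitochondrial form, was between 22.2 and 24.4 CPM in the 5 PBS kidneys and between 18.9 and 23.3 CPM in DMM replicates 1, 2, 3 and 5, and DMM replicate 4 had 35.2 CPM. The Me2 log2 fold change was 0.01 ± 0.21 (SE) over the 8 libraries and -0.26 over the 7 without DMM replicate 4, where edgeR's test gave an adjusted p of 0.03384 with a fold change below the minimum.

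Acly, ATP citrate lyase, which splits citrate exported to the cytosol into acetyl-CoA and oxaloacetate, was between 261 and 268 CPM in PBS replicates 1, 2, 4 and 5, and at 219 CPM in PBS replicate 3. In DMM replicates 1 to 5 Acly was at 270.3, 244, 243, 323 and 224 CPM. Its log2 fold change was -0.04 ± 0.13 (SE) over the 8 libraries and did not pass. Unlike Pcx, Pck1 and Me1, Acly was lower in PBS replicate 3 than in every other library, and it was picked out after its values were seen.

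The aspartate aminotransferases Got1 (cytosolic) and Got2 (mitochondrial) exchange amino groups between glutamate and oxaloacetate. Neither was called, with log2 fold changes of 0.27 and 0.41 over the 8 libraries and 0.18 and 0.27 over all 10. Got2 in the 4 PBS libraries was between 128 and 151 CPM and did not overlap DMM replicates 2 to 5, which were between 168 and 211 CPM. Got1 overlapped.

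**Figure D2:**
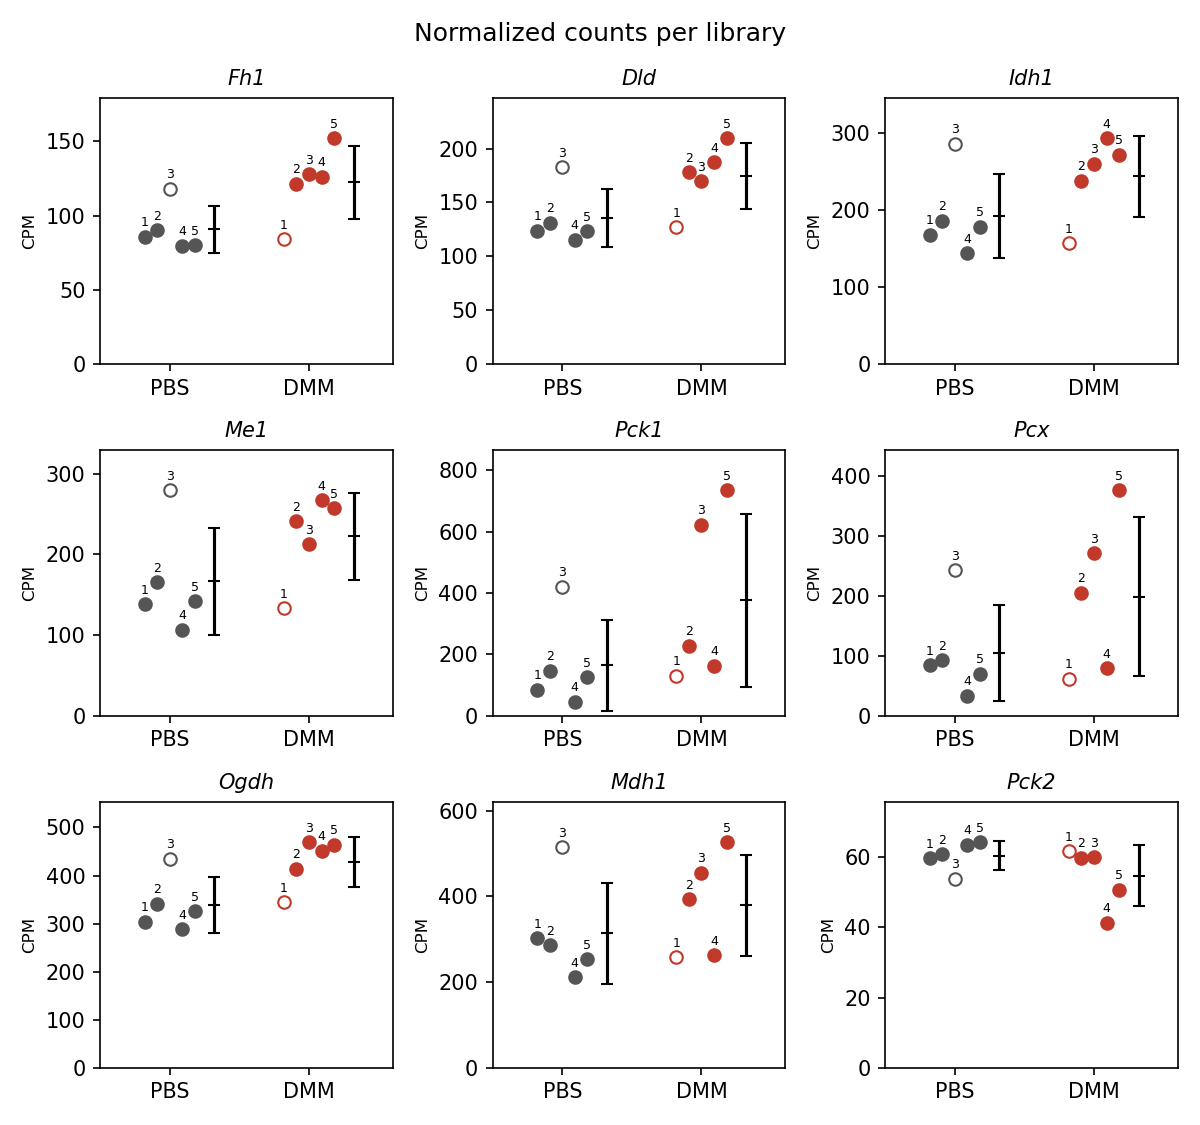
Each panel shows CPM of 1 gene in each library, numbered by replicate; open circles are PBS replicate 3 and DMM replicate 1, and bars give the mean ± SD of all 5 libraries of a group. DMM replicates 2 to 5 are above PBS replicates 1, 2, 4 and 5 for Fh1, Dld, Idh1, Me1, Pck1 and Ogdh, but not for Pcx, Mdh1 and Pck2, and PBS replicate 3 is the highest PBS library in every panel but that of Pck2.

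By level per length, the mean FPKM of the 36 genes ran from 2.08 (Me3) to 134 (Mdh1). After Mdh1 came Pck1 at 78.4, Idh1 at 78.2, Ogdh at 69.9 and Idh2 at 68.7 FPKM. These means pool both groups. Pck1 averaged 47.75 ± 42.8 FPKM in PBS and 109 ± 81.8 FPKM in DMM kidneys (SD), so its place is within the spread between kidneys. In PBS kidneys it was also below Idh1 (68.95), Idh2 (62.07), Ogdh (61.65), Mdh2 (51.99), Pdha1 (50.27) and Acly (48.03 FPKM). In DMM kidneys it came after Mdh1 (146.9 FPKM) and before Idh1 (87.53 FPKM). Ogdhl at 2.67, Pdp1 at 4.96 and Pdp2 at 5.86 FPKM came next to Me3 at the low end.

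Of 44 other genes around the pathway (carriers, lactate and ketone enzymes, lipoylation, glutamate and propionate metabolism, all tested), edgeR called 11 higher and 0 lower over the 8 libraries, against 2.73% and 3.56% of all genes. Over all 10 it called 0, where 3 of the 44 were higher at an unadjusted p under 0.05 with the fold minimum, against 315 of all 16505 genes. The median log2 fold change was 0.54 over 8 and 0.30 over 10 libraries. The smallest p over the 8 belonged to Oxct1, which activates ketone bodies with succinyl-CoA, then Mut, the methylmalonyl-CoA mutase that feeds succinyl-CoA, Mpc1, a subunit of the mitochondrial pyruvate carrier, Dhtkd1, a 2-oxoadipate dehydrogenase, and Slc13a3, a carrier of succinate and other dicarboxylates. In edgeR's quasi-likelihood test over the 8 libraries the values were Oxct1, log2 fold change 0.97, adjusted p 0.01067, Mut, log2 fold change 0.92, adjusted p 0.01139, Mpc1, log2 fold change 0.75, adjusted p 0.01301, Dhtkd1, log2 fold change 1.44, adjusted p 0.01452, and Slc13a3, log2 fold change 2.11, adjusted p 0.02251. Others called include Slc25a13, an aspartate-glutamate carrier, Slc13a2, an apical citrate carrier, Slc16a7, a monocarboxylate carrier, Pdpr, a regulator of the pyruvate dehydrogenase phosphatase, and Adhfe1, with log2 fold changes of 0.67, 1.11, 1.04, 0.63 and 1.52. Ldha and Ldhb, the lactate dehydrogenase subunits, had log2 fold changes of 0.08 and 0.15 and did not pass.

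Markers of cell types also differed between libraries, and their part in the result was not tested. Of 10 proximal tubule markers, 5 rose over the 8 libraries and 0 fell, against 2.73% and 3.56% of all genes. At an unadjusted p under 0.05 with the fold minimum 9 were higher, against 6.45% of all genes, and the median log2 fold change was 1.66. Their summed level was 1935, 2073, 4464, 914.8 and 1642 CPM in PBS replicates 1 to 5 and 1528, 3894, 4428, 5056 and 5243 CPM in DMM replicates 1 to 5. PBS replicate 3 was above the other PBS libraries and DMM replicate 1 below the other DMM libraries, as for the 36 enzymes. Lrp2, with the most counts of the 10, was at 2504 CPM in DMM replicate 4 and at most 1277 CPM elsewhere. The summed level of the 36 enzymes was 3984, 4218, 5938, 3447 and 3936 CPM in PBS and 3899, 5403, 6395, 4652 and 6918 CPM in DMM replicates 1 to 5.

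Transcripts of the mitochondrial genome followed the same split of libraries. All 12 tested of 13 listed were called higher over the 8 libraries, against 2.73% of all genes, with a median log2 fold change of 1.49. Their sum was 19840, 21830, 35850, 18280 and 18880 CPM in PBS replicates 1 to 5. In DMM replicates 1 to 5 it was 21860, 36740, 39930, 61190 and 43940 CPM. mt-Co1 had the most counts. Of 10 markers of the loop, distal tubule and collecting duct, 4 rose and 0 fell over the 8 libraries, against 2.73% and 3.56% of all genes. At an unadjusted p under 0.05 with the fold minimum 6 were higher, against 6.45% of all genes, and the median log2 fold change was 0.90. Umod had the most counts, and sums were between 1795 and 4468 CPM in PBS and between 2015 and 5349 CPM in DMM kidneys.

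At an unadjusted p under 0.05 with the fold minimum, 5 of 8 macrophage, 7 of 7 T cell and 4 of 7 myofibroblast markers were lower over the 8 libraries, against 7.24% of all genes, with median log2 fold changes of -0.81, -1.22 and -1.01. Of the 8 macrophage markers 2 fell by the adjusted test, where 3.56% of all genes fell, with sums between 1220 and 1651 CPM in PBS and between 712.4 and 1326 CPM in DMM kidneys and the most counts for C1qb. Of the T cell markers 2 fell, with sums between 39.2 and 70.0 CPM in PBS and between 14.2 and 43.4 CPM in DMM, with most counts for Cd4. Of the myofibroblast markers 2 fell, with sums between 4743 and 13610 CPM in PBS and between 3386 and 10710 CPM in DMM, with most counts for Col3a1. Of 6 endothelial and 5 podocyte markers 0 were called and 0 had an unadjusted p under 0.05 with the fold minimum, with medians of -0.02 and -0.07, and most counts for Pecam1 and Podxl. All 5 blood markers were higher at an unadjusted p under 0.05 and a fold above 1.5, against 6.45% of all genes, but 0 were called. Their median log2 fold change was 1.78, with Hbb-bs between 68.5 and 121 CPM in PBS and between 106 and 395 CPM in DMM. Adrenal markers summed to at most 10.5 CPM in any library, with most counts for Star. Over all 10 libraries 0 genes of any of these lists were called. At an unadjusted p under 0.05 with the fold minimum, 9 of 12 mitochondrial genome, 5 of 5 blood and 3 of 10 proximal tubule genes were higher there. By the same rule 5 of 8 macrophage and 5 of 7 T cell markers were lower. For the loop, distal tubule and collecting duct list and the myofibroblast list it was 0. Of all 16505 genes, 315 were higher and 678 lower. The part of these cell types in the enzyme levels was not tested.

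DMM replicate 4 differed from DMM replicates 2, 3 and 5 in both directions. On the log2 scale its difference from their mean ran from -1.80 (Idh2), -1.79 (Pcx) and -1.53 (Pck1) to 0.84 (Me2) and 1.15 (Pdp2), and was negative for 24 of the 36 genes. Over all 16491 genes tested that had a GC content, the deviation of DMM replicate 4 from the mean of DMM replicates 2, 3 and 5 had a Spearman correlation across genes of 0.44 with gene length and -0.49 with GC content. Deviations of PBS libraries from the mean of the other 4 gave -0.05 to 0.03 and -0.09 to 0.16, whereas the reference of each other DMM library includes DMM replicate 4, so those values are not compared. Over the 36 genes DMM replicate 4 had 0.17 and -0.24, and PBS libraries -0.31 to 0.30 and -0.13 to 0.32. Genes are not independent replicates, so these are descriptions.

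Promoter sequence, 250 bases before to 50 after each start, was matched in RefSeq (GRCm38.p6) for 33 of the 36 genes, all but Idh3a, Me2 and Pdp1. Motifs were searched on both strands. TTACGTCA, a cyclic AMP response element variant, was found in 1 of the 33, that of Pck1, and in 0.58% of all 27025 genes with a promoter. TGACGTCA, the palindromic form, was found in 2 of the 33 (Mdh2 and Ogdh) and in 2.03% of all genes. TGACNNNGC, the antioxidant response core, was found in 7 of the 33, or 21.2%, against 13.99% of all genes, and CACGTG, the E box, in 5, or 15.2%, against 8.09%. TCAAGGTCA, bound by estrogen-related receptors, and the direct repeat of AGGTCA spaced by 1 base were found in 0 of the 33, against 0.47% and 0.05% of all genes. The sterol response element was found in 0 of the 33, against 0.27%. A match is a description of letters in a window, and binding was not measured.

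Sequence around 4 matches is shown for Pck1, the gene of largest fold change, for both genes with the palindromic element, and for Me1, a called gene with the antioxidant core; capitals mark the match, and each is read 5′ to 3′ on the gene's own strand in GRCm38.p6. The match begins at base -93 of Pck1 (chr2:173152960-173153007, plus strand), -127 of Mdh2 (chr5:135778511-135778540, plus strand), -51 of the Ogdh start given here (chr11:6291526-6291573, plus strand) and -6 of Me1 (chr9:86695905-86695934, minus strand), counted from the RefSeq start.
Pck1: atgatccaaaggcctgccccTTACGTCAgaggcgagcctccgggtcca
Mdh2: ggagagaatcgTGACGTCAggcctcgctcg
Ogdh: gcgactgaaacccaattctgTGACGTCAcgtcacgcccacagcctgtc
Me1: ggccgatgccgccgTGACTCAGCgcttctc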

How the data were processed

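RNA of 10 obstructed kidneys, 5 PBS and 5 DMM, was sequenced from mRNA libraries. Per the submitters' processing notes HISAT2 2.0.5 was used, and the authors aligned reads to mm10. The counting tool, the annotation and the use of strand are not given in the sources used here. Values used are the raw counts that the authors deposited per gene and library. Deposited FPKM values are the authors' counts per length of gene and library size. Group means that the authors deposited are a signal, in counts divided by size factors. Log2 fold changes and p-values of the authors' own DESeq2 comparison, also deposited, hold their results and were not used. The deposited gene length is in bases, another value taken as the authors gave it. Per-sample columns not used number 0.

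Deposited group means were solved as weighted sums of the deposited counts, which gave PBS replicate 3 and DMM replicate 1 a weight of 0. Each result was computed over all 10 libraries and over the other 8. The methods state 5 independent replicates, whereas the deposited group means draw on 4 libraries per group, and the reason is not given in the sources used here. The labels name no animals, so that p-values measure the spread between these samples. No pair of libraries of a group agreed within sampling noise.

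Counts were filtered with filterByExpr, scaled by TMM and tested by the quasi-likelihood F test of edgeR 4.0.16 in R 4.3.3, with Benjamini-Hochberg adjustment over all genes tested. Calls needed a fold change of more than 1.5 and an adjusted p below 0.05. The fitting script was tested on simulated data with known answers first.

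The members and lists were chosen with earlier results of these data known. Values in every library are printed for each member called in either set, with an unadjusted p under 0.05 over all 10, among the 8 of smallest p over the 8, of highest or lowest mean FPKM, or in the paralog pair that differed most in direction. Pathway genes named are among those called, besides the lactate dehydrogenase subunits and Nnt, which were picked out after their values were seen, and markers by the gene with the most counts. Alternatives were DESeq2 1.42.0, RLE size factors, library size alone, no filter, CPM above 1, a loess correction for gene length and GC content, a block for replicate number, omission of single libraries and other thresholds.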

Additional observations from a re-analysis of the deposited data

Results flagged for a closer look

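In 13 of 72 groups of 5 libraries (36 genes in PBS and in DMM kidneys), the highest or lowest CPM lay apart from the other 4, with a gap to the nearest library above 0.71 of the range (Dixon's criterion). Chance alone gives about 1 in 20 groups, and the genes share libraries. Of these, 10 were PBS replicate 3, which was the highest PBS library for Idh2 (234 CPM), Idh3b (147.4), Dlst (227.3), Dld (182.7), Sucla2 (107.7), Fh1 (118), Dlat (104.9), Pcx (242.9) and Pck1 (420.6), and the lowest for Acly (218.9 CPM). The remaining 3 were DMM replicate 4, the highest DMM library for Pdk3 (67.71 CPM), Pdp2 (69.53) and Me2 (35.22). DMM replicate 1 lay apart in 0 groups. Fh1, Dld and Pck1, which rose over the 8 libraries without PBS replicate 3, are among these genes.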

How the results depend on the processing

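Of 648 log2 fold changes of the 36 genes recomputed over all 10 libraries with another setting, 625 kept direction and call, 5 became calls and 18 changed sign. Of 540 over the 8 libraries, 483 kept both, 18 became calls, 31 calls were lost and 8 changed sign. The cause was not tested.

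Over all 10 libraries, genes called went from 0 to 41 with DESeq2 (9 higher, 32 lower), to 993 at an unadjusted p with the fold change (315 higher, 678 lower, with 1 of the 36 genes higher) and to 1042 over the 8 libraries (452 higher, 590 lower, with 5 of the 36 higher). Leaving out a library in turn gave 0 to 486 genes, 0 to 50 higher and 0 to 436 lower, the highest without DMM replicate 1, with 0 of the 36 in each case.

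Over the 8 libraries, genes called went from 1042 (452 higher, 590 lower) to 1663 with DESeq2 (769 higher, 894 lower, 8 of the 36 higher) and to 2265 at an unadjusted p with the fold change (1067 higher, 1198 lower, 9 of the 36 higher). With no minimum fold change 11 of the 36 were called. With library size alone 276 were higher and 700 lower, or 28.3% higher against 43.4%, and 1 of the 36 was called, while the median of all genes moved by -0.11. Leaving out a library in turn gave 407 to 2410 genes, 131 to 1129 higher and 276 to 1281 lower, and 0 to 16 of the 36 called higher. The lowest was without PBS replicate 5 and the highest without DMM replicate 4. The correction for length and GC content called 7 of the 36, of which 4 were among the 5 (Idh1, Fh1, Pck1 and Me1), and no filter called 5, of which 4 were among them. Of all genes, the correction called 606 higher and 758 lower of 16550, and no filter 409 higher and 549 lower of 30191.

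The labels name no pairs of samples. The correlation of deviations of same-numbered libraries was -0.06, 0.079, 0.341, 0.124 and -0.223, which does not decide whether replicate numbers pair the samples. With the replicate block, 0 genes were called over the 8 libraries (0 higher, 0 lower, 0 of the 36) and 0 over all 10. Among the 8 libraries only replicate numbers 2, 4 and 5 occur in both groups. The block thus leaves few libraries to measure the spread, and the 0 there cannot tell whether the calls depend on pairing.

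Changes of sign concerned Me2, Acly, Pdp1, Mdh2 and Pdp2, which were not called before or after. Over all 10 libraries the log2 fold change of Me2 was -0.0055 and became 0.0064 with DESeq2, 0.0065 with RLE size factors, 0.0109 with CPM above 1, 0.0052 over the 8 libraries, and 0.0048, 0.0033, 0.0189, 0.0615, 0.0492 and 0.061 without PBS replicates 2, 3 and 5 and DMM replicates 2, 3 and 5. Acly went from 0.0293 to -0.0654 with library size alone, -0.0358 over the 8 libraries, and -0.022 and -0.0588 without PBS replicate 3 and DMM replicate 4. Pdp1 went from -0.0529 to 0.013 without PBS replicate 5 and 0.0463 without DMM replicate 2, Mdh2 from 0.0739 to -0.0002 without DMM replicate 3 and Pdp2 from 0.2951 to -0.0625 without DMM replicate 4. Leaving out single libraries gave -0.1993 to 0.0615 for Me2, -0.1319 to 0.0463 for Pdp1, -0.0002 to 0.1992 for Mdh2 and -0.0625 to 0.4741 for Pdp2. Over the 8 libraries Me2 went from 0.0052 to -0.1348 with library size alone, -0.029 with no filter, -0.0399 with the length and GC correction, and -0.0008, -0.0228 and -0.2573 without PBS replicates 2 and 4 and DMM replicate 4. Pdp1 went from -0.0744 to 0.0393 without DMM replicate 2 and Acly from -0.0358 to 0.0253 without DMM replicate 5. Leaving out single libraries gave -0.2573 to 0.0927 for Me2, -0.171 to 0.0393 for Pdp1 and -0.1599 to 0.0253 for Acly.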

Other observations

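Nnt, the mitochondrial transhydrogenase that makes NADPH, was at 0.414 ± 0.125 CPM in 4 PBS and 1.38 ± 0.900 CPM in 4 DMM kidneys (SD). Its log2 fold change was 1.71 over the 8 libraries, with an adjusted p of 0.07077 by edgeR's quasi-likelihood test.

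Adipocyte markers were near 0 in most libraries and summed to 86.8, 21.5 and 7.78 CPM in PBS replicate 4, PBS replicate 2 and DMM replicate 5. Cfd, with the most counts, was at 58.3, 15.1 and 5.41 CPM in these libraries. In DMM replicate 4 all 6 adipocyte markers had 0 counts. PBS replicate 4 was the lowest of all 10 libraries in 19 of the 36 enzymes, PBS replicate 2 in 0, DMM replicate 5 in 1 and DMM replicate 4 in 8. A link of adipocyte markers with enzyme levels was not tested.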
